A study of Equus caballus with 17 samples.

Results

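The genes described here were chosen because their mean level was lower at 1% O2 than at 21% O2, both at 48 h and at 72 h, in cultured skeletal muscle cells of the horse. Levels were CPM (the count of a gene relative to the total of its library, a unit that removes differences in depth) on the log2(CPM + 1) scale, averaged over the libraries of a group. A gene had to be lower at 1% O2 by at least 0.4 at each time. It also needed a mean of at least 5 CPM over the 17 libraries and a difference under 1 between 72 h and 48 h at 21% O2, and it could not be among the 100 most abundant genes. Of 38849 gene IDs, 9595 met the conditions on level and time and could have been chosen (the eligible genes), and 58 of them met the rule. The values at 1% and 21% O2 chose these genes, so their lower means there are a description and not a finding. Libraries at 3% O2 played no part in the choice beyond the mean CPM.

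RNA came from cells grown out of the gluteus medius of 1 foal, which the labels call preterm and 10 months old. Pre-plating had reduced the fibroblasts among them, and they attached to gelatin before exposure. Cells kept in room air (21% O2) gave 5 libraries at 48 h and 4 at 72 h. Severe hypoxia (1% O2) gave 3 libraries at 48 h and 2 at 72 h, and moderate hypoxia (3% O2) gave 3 at 72 h. All groups share the foal and, apart from oxygen and time, the culture conditions. The labels state 3 technical replicates per group, which does not match the 2 to 5 libraries found. Whether the libraries came from separate flasks was not stated. The spread between libraries, and every p-value here, may therefore reflect technical differences only. The tables give Ensembl IDs without gene names and 0 of the 38849 IDs matched a symbol. Functions of the genes are therefore not given, and markers of muscle precursors or other cell types were not checked.

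Muscle precursor cells divide in culture and can fuse into muscle fibres. When oxygen is scarce, prolyl hydroxylases that use oxygen as a substrate slow down, and hypoxia-inducible factors accumulate and raise the transcription of genes for glycolysis, glucose uptake and blood vessel growth. Genes that fall in hypoxia are a more mixed group in general, since their transcription can be reduced by repressors, by lower growth and protein synthesis, or by changed turnover of the mRNA.

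The fall at 1% O2 rested mainly on 1 library at each time. Both are numbered replicate 2, but the main fit did not take replicate numbers to pair libraries of different groups. At 1% O2, replicate 2 of the 48 h group had a median deviation of -1.03 (log2, each gene relative to its own mean over the 17 libraries), and replicate 2 of the 72 h group one of -1.09. In the other 15 libraries, at any oxygen level, this median lay between -0.16 and 0.31. The remaining 1% O2 libraries are part of these 15. Replicate 3 at 48 h, at -0.16, was the lowest of them and lay just below all libraries at 21% and 3% O2 (-0.13 to 0.31). Replicate 1 had 0.24 at 48 h and 0.20 at 72 h, inside the range of the 21% and 3% O2 libraries. All 58 genes were below their own mean in each of the replicate 2 libraries, compared with 11 genes in replicate 1 and 43 in replicate 3 at 48 h, and 13 in replicate 1 at 72 h. Thus the median of the 58 genes was not low in every 1% O2 library. Replicate 2 was the lowest 1% O2 library for 53 of the 58 genes at 48 h and the lower of 2 for 57 at 72 h. Most of the genes, not all, can therefore be described as lowest in replicate 2 among the 1% O2 libraries. The rule used these values and such counts were not made over the eligible genes, so this is a description only.

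**Figure D1:**
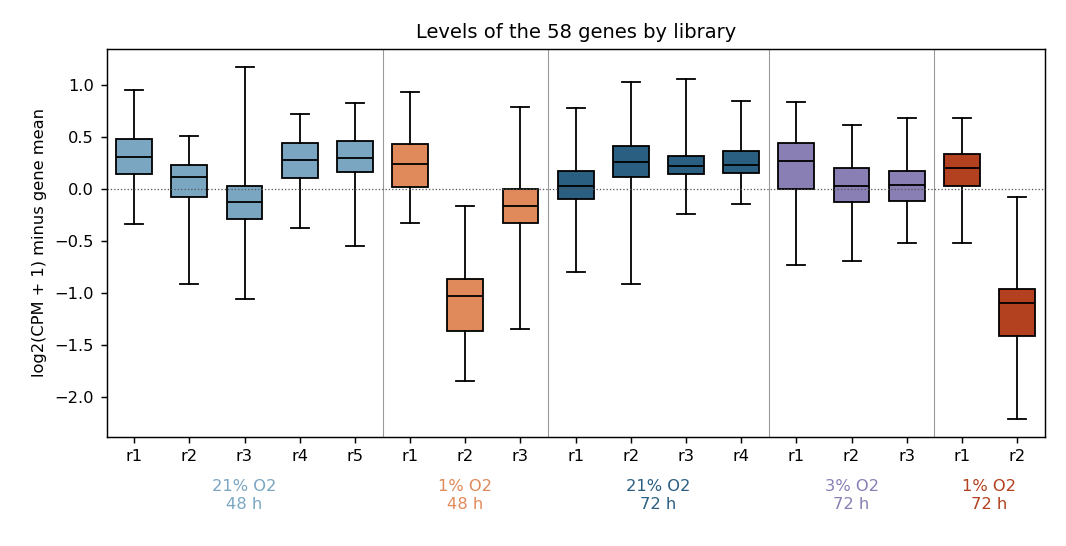
Levels of the 58 genes in each of the 17 libraries, as log2(CPM + 1) minus the mean of each gene over all libraries (y axis). Boxes span the quartiles with the median as a line, whiskers reach the lowest and highest gene, and r1 to r5 are replicates. Both replicate 2 libraries at 1% O2 have medians near -1, while the other 15 medians lie between -0.16 and 0.31.

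The share of all counts that fell on the 58 genes showed the same libraries apart. At 1% O2 replicate 2 had 0.133% at 48 h and 0.134% at 72 h, and the other 15 libraries had 0.30% to 0.458%. At 48 h the remaining 1% O2 libraries had 0.448% (replicate 1) and 0.30% (replicate 3), where the 5 libraries at 21% O2 averaged 0.407% ± 0.0601 (SD). At 72 h, replicate 1 at 1% O2 had 0.397%, the 4 libraries at 21% O2 averaged 0.355% ± 0.0121 and the 3 at 3% O2 averaged 0.354% ± 0.0398 (SD). The most abundant of the 58 genes held 21.0% of their summed mean CPM. On the other 57 the shares were 0.108% and 0.120% in the replicate 2 libraries, against 0.231% to 0.346% elsewhere. In bulk RNA, fewer cells of a type and less RNA per cell cannot be told apart.

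On 3 whole-library measures the replicate 2 libraries at 1% O2 lay inside the range of the others. Their totals were 12998260 counts at 48 h and 14726953 at 72 h, and totals ran from 12358247 to 24274627 over all libraries. They had a count for 18250 and 18451 genes, where the other libraries had 18014 to 19480. The 100 most abundant genes took 27.0% and 31.8% of their counts, inside the range of the other libraries. A median of 93 and 97 counts stood behind each of the 58 genes there, 20 of them had under 50 counts in at least 1 of both libraries, and the lowest count of any was 11. The counts of the pair differed by far more than sampling noise (chi-square per degree of freedom 33.3 over 14087 genes with at least 10 counts in the pair), so that they are not 1 library deposited as 2.

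**Figure D2:**
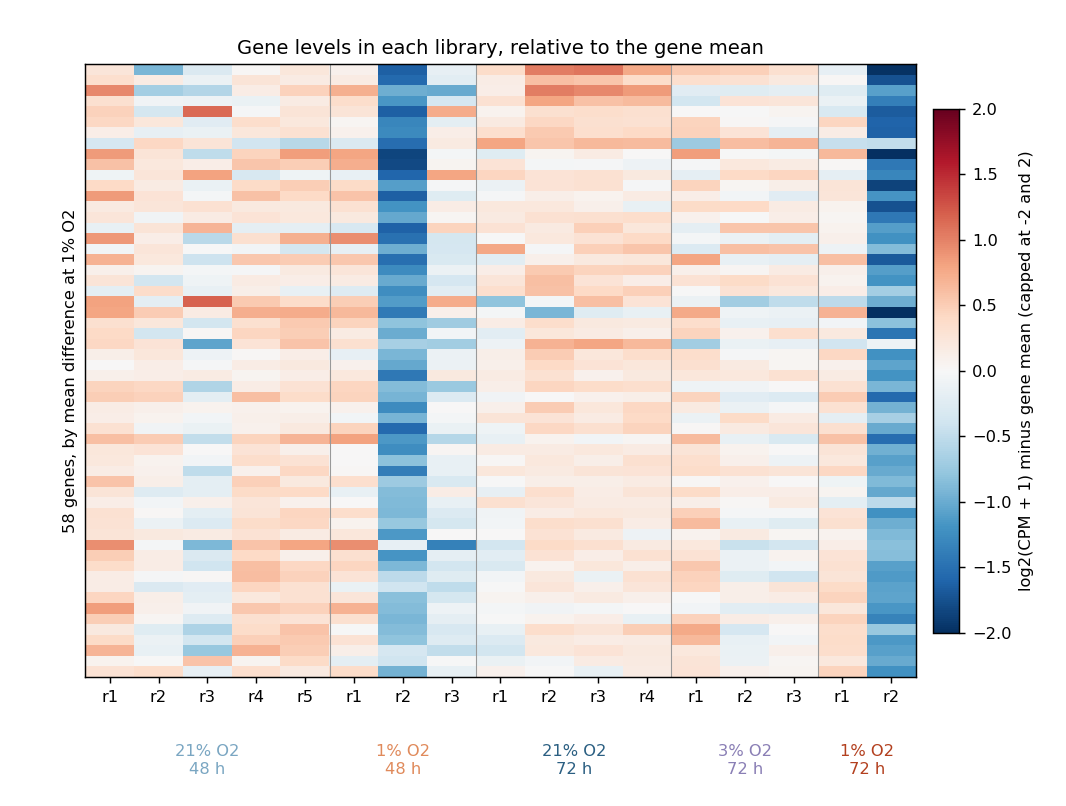
Level of each of the 58 genes (rows, from the lowest mean difference at 1% O2 at the top) in each library (columns, by group), as log2(CPM + 1) minus the gene's mean; blue is lower and red higher, and colours are capped at -2 and 2. The 2 columns of replicate 2 at 1% O2 lie below the gene mean in every row.

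Library by library, replicate 2 at 1% O2 for 48 h lay below each of the 5 libraries at 21% O2 for 48 h for 55 of the 58 genes, where 18.4% of the eligible genes did so. In replicate 1 this was seen for 5 genes (5.27% of the eligible) and in replicate 3 for 29 (21.6% of the eligible). At 72 h, replicate 2 at 1% O2 lay below all 4 libraries at 21% O2 for 57 genes (46.5% of the eligible) and replicate 1 for 20 (25.3% of the eligible). For 36 of the 58 genes replicate 1 at 48 h was above the mean of 21% O2 (61.3% of the eligible genes), and for 30 replicate 1 at 72 h was (56.3% of the eligible). Replicate 2 was above that mean for 0 of the 58 at 48 h (53.3% of the eligible) and 0 at 72 h (38.8% of the eligible), and replicate 3 at 48 h for 8 (35.3% of the eligible). No overlap of the groups, with every 1% O2 library below every 21% O2 library, was found for 3 genes at 48 h (0.417% of the eligible) and 19 at 72 h (16.2% of the eligible). The choice of genes used these values, so nothing is read from the excess over the background.

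With all libraries the 58 genes had a median difference of -0.48 at 48 h (from -0.85 to -0.40) and -0.63 at 72 h (from -1.88 to -0.40). Replicate 2 alone differed from the 21% O2 mean by a median of -1.22 at 48 h (from -2.22 to -0.44) and -1.27 at 72 h (from -2.78 to -0.59). It was at least 2-fold lower on this scale for 43 and 49 of the 58 genes. These counts were favoured by the rule and were not made over the eligible genes. The sizes of the falls in replicate 2 correlated across the 58 genes between the times (Pearson r = 0.50, Spearman rho = 0.55). That is a description of genes chosen to be low in both. Without replicate 2 the median difference was -0.13 at 48 h (from -0.48 to 0.22), where that of the eligible genes was -0.05. At 72 h it was 0.0059 (from -1.12 to 1.02) in the 1 library left, with 0.05 over the eligible genes. A fall of 0.4 or more was then left for 1 of the 58 genes at 48 h (1.37% of the eligible) and 11 at 72 h (11.7% of the eligible). A mean below that of 21% O2 was left for 47 at 48 h (60.6% of the eligible), 28 at 72 h (43.7% of the eligible) and 19 at both times (18.3% of the eligible).

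**Figure D3:**
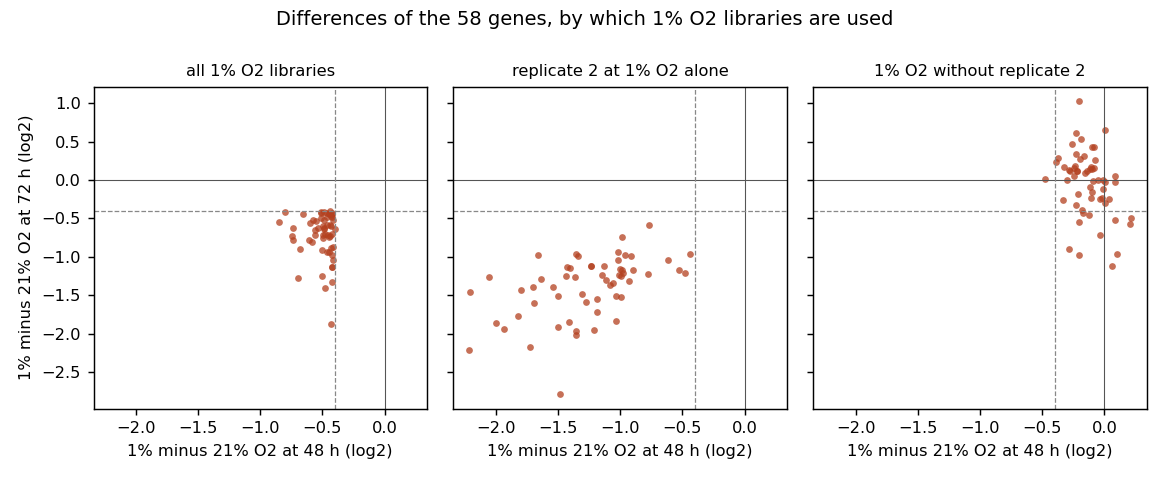
Difference of 1% from 21% O2 in log2(CPM + 1) at 48 h (x axis) and 72 h (y axis) for the 58 genes (points), from all 1% O2 libraries (left), replicate 2 alone (middle) and the 1% O2 libraries without replicate 2 (right). Dashed lines mark the limit of -0.4 that the rule sets. Without replicate 2 the points centre near 0, with medians of -0.13 at 48 h and 0.0059 at 72 h.

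At 48 h the 2 libraries left did not act alike. Replicate 1 differed from the 21% O2 mean by a median of 0.07 over the 58 genes and replicate 3 by -0.35, compared with 0.04 and -0.13 over the eligible genes. Replicate 3 at 21% O2 for 48 h was itself the lowest of its group, with a median deviation of -0.13 where the other 4 had 0.11 to 0.31. Outside the replicate 2 libraries at 1% O2, the lowest value of a gene lay in replicate 3 of the 48 h groups for 17 genes (1% O2) and 14 genes (21% O2). The same counts were not made over the eligible genes, so they are not read as particular to the 58.

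Applying the rule again with 1 library left out showed which libraries the choice turned on. Without replicate 2 at 1% O2 for 48 h only 2 genes met the rule, of which 1 was among the 58. Without replicate 2 at 1% O2 for 72 h 11 genes met it, all among the 58, and without both 0 did. Leaving out a different 1% O2 library had the opposite effect: 184 genes met the rule without replicate 1 at 48 h, 206 without replicate 3 at 48 h and 124 without replicate 1 at 72 h, with 57, 50 and 57 of the 58 among them. With a library of 21% or 3% O2 left out, the number was 46 to 86 and 42 to 58 of the original genes remained.

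**Figure D4:**
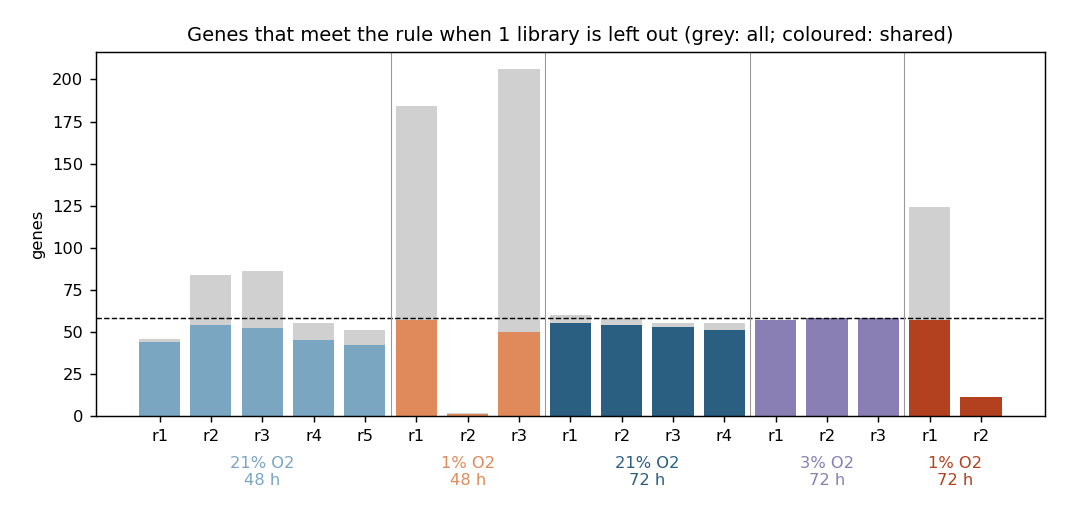
Number of genes that met the rule with 1 library left out (y axis), by the library left out (x axis). The coloured part of a bar counts genes among the 58 chosen from all 17 libraries, grey the others, and the dashed line marks 58. The bars fall to 2 and 11 without replicate 2 at 1% O2 for 48 h and 72 h.

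Moderate hypoxia gives the levels of these genes in libraries that did not choose them. The median difference of log2(CPM + 1) was -0.08 over the 58 genes, from -0.97 to 0.52, beside -0.01 over the eligible genes. Of the 58 genes, 37 had a lower mean at 3% O2 (53.2% of the eligible did) and 5 were lower by 0.4 or more (3.14% of the eligible). All 3 libraries at 3% O2 lay below all 4 at 21% O2 for 8 genes (6.17% of the eligible). This comparison shares the 4 libraries at 21% O2 for 72 h with the rule, so its counts are not independent of the choice.

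By the edgeR quasi-likelihood test on all 17 libraries, with Benjamini-Hochberg adjustment over 14465 genes tested, 0 of the 58 genes were called lower at 3% O2 (0% of all genes tested), and the lowest adjusted p among them was 0.806. Before adjustment 2 genes were lower with a p under 0.05, 3.45% of the 58 beside 3.11% of all tested. DESeq2 and limma-voom called 0 of the 58 (0.0424% and 0% of all genes each tested lower). The fitted log2 fold change had a median of -0.03 (from -1.14 to 0.56), beside 0.0036 over all genes tested, and was negative for 35 of 58.

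The libraries at 3% O2 also differed among themselves. Replicate 1 had a median difference of 0.06 from the 21% O2 mean over the 58 genes, where replicates 2 and 3 had -0.14 and -0.15. Replicate 1 lay below all 21% O2 libraries for 16 genes (26.7% of the eligible), replicate 2 for 23 (25.4% of the eligible) and replicate 3 for 24 (26.9% of the eligible). Above the 21% O2 mean were 32 genes in replicate 1 (58.7% of the eligible), 15 in replicate 2 (37% of the eligible) and 16 in replicate 3 (36.2% of the eligible). Without replicate 1 the fitted median was -0.11, and 0 genes were called. All 3 libraries at 3% O2 were above replicate 2 at 1% O2 for 72 h for 56 of the 58 genes. The rule used that replicate 2 library and the count was not made over the eligible genes, so nothing is read from it. At 72 h the means rose in the order 1%, 3% and 21% O2 for 36 of the 58 genes, compared with 29.3% of the eligible genes, an order in which 2 of the 3 groups were used for the choice.

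For 1% against 21% O2, which the rule used, edgeR called 0 of the 58 genes at 48 h (0% of all genes tested lower; smallest adjusted p 1.00) and 0 at 72 h (0.878% of all genes tested lower; smallest adjusted p among the 58, 0.0877). DESeq2 called 0 at 48 h and 2 at 72 h (4.61% of all genes it tested lower), and limma-voom 0 at either time. Unadjusted p-values under 0.05 with a negative fold change numbered 2 at 48 h (0.691% of all genes tested) and 13 at 72 h (11% of all genes tested). Since the rule used these libraries, nothing is read from these counts. Among the 3 libraries at 3% O2, which did not serve to choose the genes, the SD in log2(CPM + 1) had a median of 0.19 both for the 58 and for the eligible genes. In libraries that the rule used it was 0.72 among the 3 libraries at 1% O2 for 48 h and 0.95 between the 2 at 72 h, against 0.27 and 0.24 for the eligible genes. At 21% O2 they were 0.30 against 0.25 at 48 h and 0.16 against 0.13 at 72 h. Between 1% and 3% O2 at 72 h edgeR likewise called 0 of the 58 (0% of all genes tested lower), DESeq2 and limma-voom called 0, 4 were lower with an unadjusted p under 0.05 (4.49% of all genes tested), and the median log2 fold change was -0.45. That median was 0.06 without replicate 2 at 1% O2 for 72 h.

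A difference of mean logs and a fold change of mean counts are not the same when 1 of 2 libraries is low. By edgeR the log2 fold change of 1% against 21% O2 at 72 h was negative for 57 of the 58 genes with a median of -0.50, and at 48 h for all 58 with a median of -0.42. Without replicate 2 at 1% O2 of the time in question the medians were -0.012 at 72 h and -0.11 at 48 h. Leaving out replicate 1 at 1% O2 for 72 h instead gave -1.32 at 72 h, with 12 of the 58 called lower (1.64% of all genes tested). There replicate 2 is the only library at 1% O2 and is assumed to vary like the other groups.

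ENSECAG00000009011 had the largest mean fall of the 58. At 48 h its level was 6.33, 1.23 and 5.11 CPM in replicates 1, 2 and 3 at 1% O2, and 2.66 to 7.13 CPM with a median of 6.01 in the 5 libraries at 21% O2. At 72 h it had 5.15 and 0.747 CPM in replicates 1 and 2 at 1% O2, against 7.88, 13.0, 13.4 and 10.7 CPM in replicates 1 to 4 at 21% O2. Only 16 and 11 counts stood behind the values of replicate 2. At 48 h replicates 1 and 3 at 1% O2 lay within the range of 21% O2, while at 72 h both 1% O2 libraries were below all at 21% O2. Its 3% O2 libraries had 8.91, 8.58 and 7.59 CPM, a group mean of 8.36 ± 0.687 CPM (SD, n = 3) against 11.2 ± 2.55 CPM at 21% O2 (SD, n = 4), and overlapped with it. For 3% against 21% O2 edgeR gave a log2 fold change of -0.40 ± 0.48 (SE; adjusted p by edgeR 0.994). This gene also had the largest positive difference of the 58 between 72 h and 48 h at 21% O2, 0.95 on the log2(CPM + 1) scale, close to the limit of 1 in the rule.

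ENSECAG00000056903, second by mean fall, gave 11.4, 2.77 and 8.63 CPM in replicates 1, 2 and 3 at 1% O2 for 48 h. At 21% O2 for 48 h it had 9.26 to 13.1 CPM with a median of 11.5. The 1% O2 libraries at 72 h had 10.3 and 2.31 CPM, those at 21% O2 had 11.3, 15.8, 15.3 and 13.4, and those at 3% O2 had 13.1, 12.7 and 11.7 CPM. Replicate 2 was below every 21% O2 library at both times, and replicate 3 at 48 h was below every 21% O2 library of that time as well. Replicate 1 was within the range of 21% O2 at 48 h and just below it at 72 h. At 3% O2 the 3 libraries lay within the range of 21% O2, and the edgeR estimate was -0.13 ± 0.38 (log2, SE; adjusted p 0.999).

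ENSECAG00000024993 was the most abundant of the 58 and the highest at 3% relative to 21% O2. Its level at 48 h was 1017, 242 and 693 CPM in replicates 1, 2 and 3 at 1% O2 and 727 to 1114 CPM at 21% O2, with a median of 1064. At 72 h replicate 1 at 1% O2 had 1040 CPM, above all 4 libraries at 21% O2 (625, 343, 545 and 584 CPM), while replicate 2 had 141 CPM. Replicates 1, 2 and 3 at 3% O2 had 1094, 608 and 594 CPM. The 2 libraries at 1% O2 for 72 h thus lay on opposite sides of the 21% O2 group. By edgeR, which compares mean counts, the fold change of 1% against 21% O2 at 72 h was positive (log2 0.18 ± 0.55, SE, adjusted p = 0.873), although the difference of mean logs that the rule used was -0.42. For 3% against 21% O2 edgeR gave 0.56 ± 0.49 (log2, SE; adjusted p 0.974).

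ENSECAG00000002569, second by its difference at 3% O2, also had its 1% O2 libraries at 72 h on opposite sides of the 21% O2 group. It had 131, 20.2 and 73.5 CPM in replicates 1, 2 and 3 at 1% O2 for 48 h, against 52.3 to 136 CPM with a median of 102 at 21% O2. At 72 h its level was 119 and 15.4 CPM at 1% O2, 63.7, 78.0, 84.2 and 75.8 CPM at 21% O2, and 135, 74.5 and 73.1 CPM at 3% O2. Replicate 1 was above all 21% O2 libraries both at 1% and at 3% O2 for 72 h, whereas replicate 2 at 1% O2 was below all. Its edgeR estimate for 3% against 21% O2 was 0.34 ± 0.54 (log2, SE; adjusted p 0.997).

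**Figure D5:**
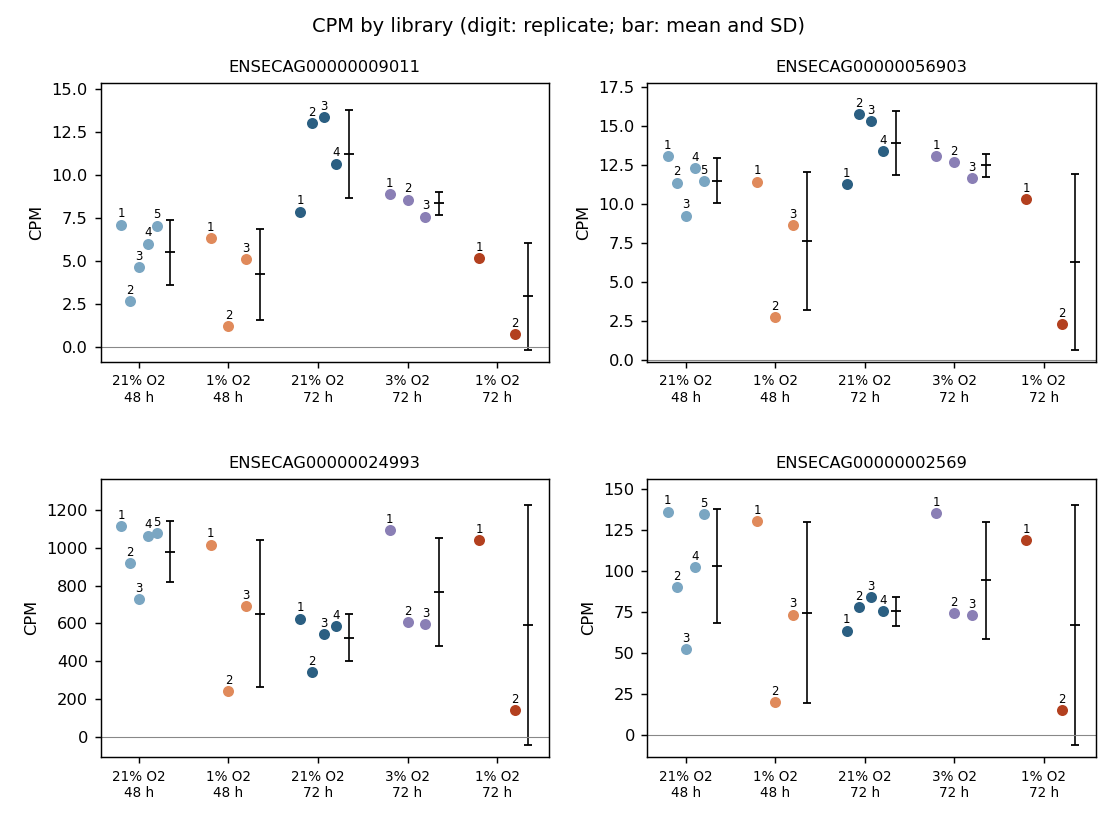
CPM in each library (points, with the replicate number) of the 2 genes with the largest mean fall at 1% O2 (top) and the 2 highest at 3% relative to 21% O2 (bottom), by group. Black bars give the mean and SD of the group and can reach below 0 where 1 of 2 libraries is low. Replicate 2 at 1% O2 is the lowest point of each panel at both times.

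The 58 genes were mostly of low to moderate level. Their mean CPM ran from 5.00 to 731 with a median of 15.9, against 35.1 for the eligible genes. By level, 17 genes had 5 to 10 CPM, 27 had 10 to 50, 8 had 50 to 100 and 6 had 100 CPM or more. The first class held 29.3% of the 58 and 12.2% of the eligible genes. The median of the mean fall at 1% O2 was of like size in these classes, at -0.61, -0.54, -0.62 and -0.64. The rule set the same limit of 0.4 in every class, so nothing is read from this likeness.

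By the rule's own values, 6 genes were lower by 0.6 or more at both times. With time at 21% O2, 29 genes had a higher mean at 72 h and 29 a lower one, from -0.92 to 0.95 with a median of 0.0042. The limit of 0.4 did not mark a gap. The 5 genes just inside had a smaller fall of -0.42 to -0.40, and the 5 just outside one of -0.40 as well, with differences at 3% O2 from -0.02 to 0.52 and from -0.19 to -0.04. Among the 58 genes 1 axis of variation dominated, which is a description, since the values at 1% and 21% O2 chose these genes. The first principal component of their log2(CPM + 1) held 72.9% of the variance, with scores of -8.50 and -9.37 for the replicate 2 libraries at 1% O2 and -1.12 to 2.81 for the other 15. The second, with 10.6%, placed replicate 3 at 1% and at 21% O2 for 48 h (-1.80 and -2.04) and the libraries at 21% O2 for 72 h (-1.42 to -0.61) on 1 side, together with replicates 2 and 3 at 3% O2 (-1.45 and -1.35). All other libraries had scores from 0.019 to 1.76.

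Both replicate 2 libraries at 1% O2 were the lowest 2 of the 17 for 52 of the 58 genes (11.3% of the eligible genes) and the highest 2 for 0 of the 58 (6.01% of the eligible). Among the 9537 eligible genes that were not chosen they were the lowest 2 for 1033 and the highest 2 for 577. Over these genes, the library closest to replicate 2 at 72 h was replicate 2 at 48 h, with a median absolute difference of 0.22 in log2(CPM + 1). In the other direction it ranked 3, at 0.22, and the closest was replicate 1 at 1% O2 for 72 h, at 0.21. The deviations of both from the other 1% O2 libraries of their time, which share no library, had r = 0.31 across these 9537 genes (Spearman rho = 0.30), given as a description. At least 2-fold lower deviations in both were found for 67 of these genes, and at least 2-fold higher ones for 48.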

How the data were processed

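RNA-seq gene counts of 17 libraries from cultured horse muscle cells were used as deposited, as whole-number counts per Ensembl gene ID and library. The submitters' processing notes name STAR 2.7.10a and HTSeq 0.13.5, then fastp 0.23.2 and bcl2fastq 2.20, the quality tools MultiQC 1.14 and FastQC 0.11.5, DESeq2 1.38.0 with R 4.2.2, and genome build EquCab3.0, without their roles. For the annotation release, strand setting and reads with several matches the answer was not given in the sources used here. Genes with near-identical copies, overlapping genes and antisense partners are therefore uncertain. Totals per library ran from 12358247 to 24274627 counts. Tables held 38849 IDs and 0 summary rows. The reference table of 39335 genes matched 0 of them, so lists of genes by symbol could not be applied, and 4 IDs are printed by a rule: the 2 genes with the lowest mean of both differences at 1% O2 and the 2 with the highest difference at 3% O2.

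CPM were computed from library sums, with a pseudocount of 1 before log2. Tests used edgeR 4.0.16 in R 4.3.3 (quasi-likelihood, TMM, filterByExpr, 1 fit of 17 libraries with a mean per group, 14465 genes tested, Benjamini-Hochberg adjustment, threshold 0.05). Standard errors are those implied by the test statistic. All 58 genes passed the low-count filter. The fit was tested on simulated data with 2-fold and 4-fold changes. For 3% O2, 1% O2 at 48 h and 1% O2 at 72 h it found 70%, 62% and 48% of the 2-fold changes. Of the 4-fold changes it found 93%, 93% and 94%. Smaller changes were not simulated, so a count of 0 called does not show that genes were unchanged. Alternatives were plain library sizes, size factors from DESeq2, all genes without a low-count filter, DESeq2 1.42.0, limma-voom (limma 3.58.1), the groups compared alone, a replicate block, other limits of the rule and each library left out. The genes, lists and tests were chosen with earlier results of these data known.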

Additional observations from a re-analysis of the deposited data

Results flagged for a closer look

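In the groups of 4 and 5 libraries, the 4 printed genes and 2 summaries of the 58 genes were examined for 1 value far from the others; the gap to the next value was set against the whole range. Of 12 such groups of values 1 stood out, where chance gives about 1 in 20 and the values reuse the same libraries. At 21% O2 for 72 h, replicate 1 had a median deviation of the 58 genes of 0.033 (log2), where the other 3 libraries had 0.23 to 0.26. Groups of 2 and 3 libraries, among them those at 1% O2, were not examined in this way.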

How the results depend on the processing

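The number of genes that met the rule was 58. It was 44 with TMM-scaled library sizes, 172 and 6 with limits of 0.3 and 0.6, 41 with a minimum of 10 CPM, and 2 to 206 with 1 library left out. Of settings chosen after seeing the data, leaving out both replicate 2 libraries at 1% O2 gave 0 genes. Leaving out 3 libraries (replicate 3 at 21% and at 1% O2 for 48 h, replicate 1 at 3% O2) gave 174. Earlier work on these data had singled these libraries out as lying opposite to their group, so nothing is read from this number.

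The count of the 58 genes called lower at 3% O2 was 0 under every alternative run. The same held at 1% O2 for 48 h and for 1% against 3% O2. Of all genes tested, DESeq2 called 0.0424% lower at 3% O2, and leaving out replicate 1 at 21% O2 for 72 h gave 0.132%. Without the 3 libraries named above, 5.46% were called lower at 1% against 3% O2. All other runs of these comparisons called 0% lower. At 1% O2 for 72 h it was 2 by DESeq2 (4.61% of all genes tested were called lower), 4 with the groups compared alone (7.33%), 2 without the 3 libraries (9.05%), and 0 to 12 with 1 library left out. The median log2 fold change ran from -0.11 to -0.02 at 3% O2 with 1 library left out, from -0.69 to -0.11 at 1% O2 for 48 h, from -1.32 to -0.012 at 1% O2 for 72 h, and from -1.30 to 0.063 for 1% against 3% O2. Without both replicate 2 libraries the last 3 medians were -0.11, -0.044 and 0.043, and limma-voom gave -0.61 for 1% O2 at 72 h.

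Among single genes, ENSECAG00000009011 at 1% O2 for 48 h had a log2 fold change of 0.090 without both replicate 2 libraries and -0.69 to 0.091 with 1 library left out. ENSECAG00000002569 had 0.016 and -1.04 to 0.015 there, and 0.62 and -2.13 to 0.65 at 72 h. ENSECAG00000024993 at 72 h had -0.35 by limma-voom, -0.14 with a replicate block and -1.74 to 0.98 with 1 library left out. Why libraries of 1 group differ was not tested.

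Of the 1% O2 libraries at 72 h, omitting replicate 1 gave the 12 calls (1.64% of all genes tested were called lower) and omitting replicate 2 gave 0 (0%). With replicate 2 of the 48 h group omitted there was 1 (1.42%).

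Replicate numbers were not taken as pairs in the main fit, although the check of this was mixed. Deviations of same-numbered libraries correlated across genes with r = -0.15, -0.08 and -0.08 for 3% against 21% O2 at 72 h. For 1% against 21% O2 at 48 h, r was 0.46, -0.03 and 0.75. At 1% O2 for 72 h there were 2 numbers, with r = -0.19 and -0.16 against 21% O2 and 0.43 and 0.37 against 3% O2. Deviations within a group of 2 libraries mirror each other, so the 2 values of a comparison are not separate. Several correlations exceeded the limit of 0.1 set for pairing, so these values do not settle the question. A replicate block left the counts of called genes among the 58 at 0, with medians of -0.05 at 3% O2, -0.45 at 1% O2 for 48 h, -0.57 at 72 h and -0.55 for 1% against 3% O2.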
